A study of Mus musculus with 6 samples.

Results

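The genes described here encode proteins that carry out or steer the splicing of pre-mRNA, and their signals were measured in haematopoietic stem cells (HSCs) with and without the muscarinic acetylcholine receptor gene Chrm1. Members were chosen by symbol in the platform annotation. They are genes named Srsf, Sf3a or Sf3b with a number, genes whose names start with Hnrnp or U2af, and a short list of further splicing genes (Prpf8, Luc7l2, Ddx41, Tra2a, Tra2b, Rbm39 and Sf1). This gave 48 of the 22180 genes on the array, and 46 of them passed the signal filter and were tested. Hnrnpa1 and Hnrnph3 were left out because their transcript clusters, the units into which the array groups its probes, carry the symbols of several genes. Zrsr2 and Srsf7 were not analysed here.

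Introns are removed by the spliceosome, which is built stepwise on each transcript. SF1 and the U2AF dimer mark the branch point and the end of the intron, and the U2 snRNP with its SF3a and SF3b subunits then takes over the branch point. SR proteins bind exons and mostly favour their use, while hnRNP proteins coat the nascent RNA and often oppose it. In human blood, SF3B1, SRSF2, U2AF1 and ZRSR2 are recurrently mutated in myelodysplastic syndromes, and LUC7L2, PRPF8 and DDX41 are altered in related myeloid disease, so these genes are of interest in a stem cell.

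There were 3 arrays of Chrm1-/- HSCs and 3 arrays of wild type HSCs, both from unchallenged C57Bl/6 marrow. Cells were sorted as negative for lineage markers and Flt3 and positive for Sca1 and Kit. The series asks how muscarinic signalling in the nervous system prepares HSCs for leaving the marrow. The comparison here sets HSCs from unchallenged mice without the receptor beside wild type HSCs. The sources used here give neither the age of the mice, nor how many stand behind an array, nor which part of Chrm1 is missing. Since nothing says that replicates are separate animals, the p-values cover the spread among these arrays and that spread may be technical.

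Array medians lay between 6.49 and 6.57, and pairs of arrays correlated at 0.917 to 0.933. The Chrm1 cluster read 8.16, 7.52 and 7.58 in Chrm1-/- cells, against 7.45, 7.44 and 7.67 in wild type cells, which checks nothing about the labels while the place of its probes is unknown. Of 9 stem cell markers, 8 were on the array and all 8 passed the filter, among them Kit at 10.88 ± 0.10 in Chrm1-/- and 10.90 ± 0.05 in wild type cells (SD, n = 3 each). Procr, another of them, read 8.16, 8.19 and 8.24 in Chrm1-/- cells, against 8.40, 8.45 and 8.50 in wild type cells, with no overlap and an unadjusted p of 0.0393 in limma. Slamf1, also among them, read 7.18, 7.02 and 8.44 in Chrm1-/- cells, against 8.04, 7.87 and 7.86 in wild type cells. Mecom differed by -0.17, Chrm1-/- minus wild type, and Cd34, Hlf, Gata2 and Meis1 by 0.06, 0.02, 0.11 and 0.09. The mean of the 8 stem cell markers lay at 9.43 to 9.61 in the Chrm1-/- arrays and 9.56 to 9.57 in the wild type arrays. None of the 4 T cell markers on the array passed the filter, while 2 of 4 B cell markers and 2 of 5 macrophage and monocyte markers on the array did. All 4 erythroid and all 4 megakaryocyte and platelet markers on the array passed, as did all 6 granulocyte precursor markers. On the erythroid list, Car1 and Car2 averaged 11.09 and 11.54 over the 6 arrays. Flt3, for which the cells were sorted as negative, also passed. It read 10.17 ± 0.19 in Chrm1-/- and 9.99 ± 0.11 in wild type cells (SD, n = 3 each). What these signals say about the purity of the sort was not tested. With 11094 genes in the limma fit, 0 reached an adjusted p of 0.05, and 332 had an unadjusted p under 0.05. All values below are log2 signals, so a difference of 1 is a doubling. Signals of different genes come from different probes and are not compared as amounts. Cells were measured in bulk, so a change in the mix of cells cannot be told apart from a change within cells.

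The splicing genes as a group were nearly level between the genotypes. By the cluster used for each gene, the only members past 1.5-fold were U2AF genes. A further cluster of Srsf1, described below, differed by 0.89. Of the 46 tested members, 18 had a higher and 28 a lower mean in Chrm1-/- HSCs. The lower ones make up 60.9% of the members, beside 49.2% of all genes tested. The median difference, Chrm1-/- minus wild type, was -0.04, beside 0.00 over all genes tested. A difference smaller than 0.25 in either direction was seen for 43 members, or 93.5%, beside 76.7% of all genes tested. This contrast is not matched for signal. Among genes with a mean signal of 10 or more, such a difference was seen for all 32 members, beside 88.2% of all genes. Among dimmer tested genes it was seen for 11 of 14 members, or 78.6%, beside 74.7% of all. At least 1.5-fold differences were seen for 2 members, U2af1 and U2af1l4, which is 4.35% beside 4.31% of all genes tested. In limma, 0 members passed the adjusted threshold of 0.05, as did 0.0% of all genes. One member, U2af1, had an unadjusted p under 0.05, which is 2.17% beside 2.99% of all genes tested, so this share is near the background. Each member had an adjusted p of 0.996.

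U2af1 encodes the small subunit of the U2AF dimer, which reads the AG at the end of the intron. It read 9.19, 8.17 and 7.68 in the Chrm1-/- arrays, against 10.23, 10.27 and 8.85 in the wild type arrays. The groups overlapped, since wild type replicate 3 lay below Chrm1-/- replicate 1. The means were 8.35 ± 0.77 in Chrm1-/- and 9.78 ± 0.81 in wild type cells (SD, n = 3 each). The mean was thus 2.71-fold lower in Chrm1-/-, a log2 difference of -1.44 ± 0.53 (SE; 95% interval -2.72 to -0.16), with an unadjusted p of 0.0331 and an adjusted p of 0.996 in limma. In the lower direction, 1.6% of all genes tested had an unadjusted p under 0.05. Without wild type replicate 3, the wild type array that overlapped, the difference was -1.90. Without Chrm1-/- replicate 3 it was -1.10, and the unadjusted p ran from 0.00838 to 0.105 over the 6 fits that left out 1 array.

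U2af1l4 encodes a paralogue of U2af1 that can pair with the large subunit in its place. Its signals were 9.10, 9.85 and 10.05 in the Chrm1-/- arrays and 9.11, 8.79 and 9.26 in the wild type arrays. Chrm1-/- replicates 2 and 3 stood above every wild type array, and replicate 1 lay among them. The difference was 0.61 ± 0.27 (SE; 95% interval -0.05 to 1.28), with an unadjusted p of 0.065 in limma. A further cluster named U2af1l4 alone read 8.76, 9.31 and 9.28 in the Chrm1-/- arrays and 8.91, 8.65 and 8.67 in the wild type arrays. This cluster showed the same pattern across the Chrm1-/- arrays, with replicate 1 lowest, and a difference of 0.37 ± 0.18 (SE). Chrm1-/- replicates 2 and 3 were thus the arrays with the lowest U2af1 and the highest U2af1l4 signals.

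U2af2 encodes the large subunit, which binds the polypyrimidine tract. It read 8.87, 8.85 and 8.78 in Chrm1-/- cells, against 9.11, 9.20 and 8.85 in wild type cells. The 3 Chrm1-/- arrays lay close together, and wild type replicate 3 reached the same level. The difference was -0.22 ± 0.13 (SE; 95% interval -0.53 to 0.09), and without wild type replicate 3 it was -0.32. The mean of 6 granulocyte precursor markers lay at 8.44 to 8.73 in the Chrm1-/- arrays and 8.75 to 8.86 in the wild type arrays, all 6 passing the filter. The groups overlapped for each of these 6 genes. Elane, Mpo, Prtn3, Ctsg and Ms4a3 differed by -0.36, -0.07, -0.14, -0.44 and -0.38, and Gstm1 by 0.01. Ms4a3 read 7.55, 6.37 and 7.55 in Chrm1-/- cells, against 7.55, 7.52 and 7.55 in wild type cells. Cd68, a macrophage and monocyte marker, read 8.47, 8.16 and 8.19 in Chrm1-/- cells, against 8.79, 9.0 and 10.25 in wild type cells, a difference of -1.07 ± 0.39 (SE) without overlap and with an unadjusted p of 0.0309 in limma. Pf4, a platelet and megakaryocyte marker, read 8.20, 9.44 and 8.06 in Chrm1-/- cells, against 9.54, 9.46 and 9.33 in wild type cells, a difference of -0.88 ± 0.37 (SE). Cd68 and Pf4 each had an adjusted p of 0.996. On the same macrophage and monocyte list, Lyz2 differed by -0.05, and Adgre1, Csf1r and Cd14, below the filter, by -0.14, 0.007 and 0.10. On the megakaryocyte and platelet list, Itga2b, Gp9 and Vwf differed by -0.04, 0.003 and 0.003. The part of all these markers and of Procr in the U2AF signals was not tested.

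**Figure D1:**
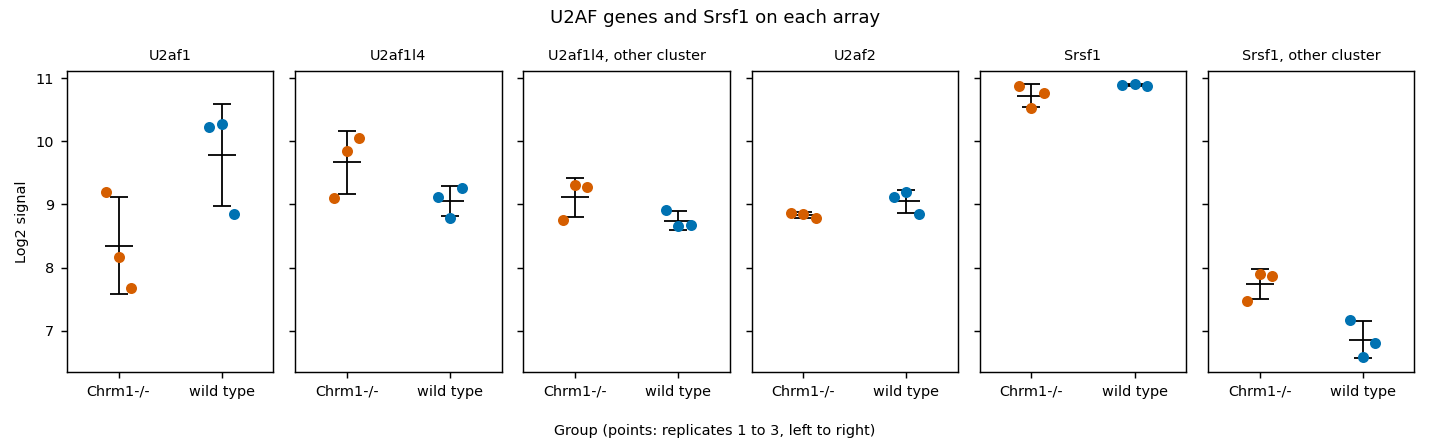
Log2 signal (vertical axis) of the U2AF genes and Srsf1 on each array, with Chrm1-/- in orange at the left and wild type in blue at the right of each panel; bars show the mean and SD of 3 arrays. U2af1 spans 7.68 to 9.19 in Chrm1-/- and 8.85 to 10.27 in wild type cells, U2af1l4 leans the other way, and only the further Srsf1 cluster, of the 6 shown, has groups that do not overlap.

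The start regions of U2af1 and U2af1l4 are shown because these 2 paralogues had the largest differences of opposite sign among the members, by the cluster used for each gene. Each sequence is the 250 bases before a RefSeq transcript start on GRCm38.p6, 5′ to 3′ along the gene, with matches to the motifs named below in capitals. The U2af1 window is chr17:31658765-31659014 on the minus strand and the U2af1l4 window is chr7:30563090-30563339 on the plus strand.
U2af1: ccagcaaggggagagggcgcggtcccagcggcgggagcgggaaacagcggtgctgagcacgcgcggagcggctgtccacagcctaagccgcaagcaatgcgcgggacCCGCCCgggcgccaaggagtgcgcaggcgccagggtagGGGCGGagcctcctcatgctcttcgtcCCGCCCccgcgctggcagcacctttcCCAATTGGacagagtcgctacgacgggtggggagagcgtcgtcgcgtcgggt
U2af1l4: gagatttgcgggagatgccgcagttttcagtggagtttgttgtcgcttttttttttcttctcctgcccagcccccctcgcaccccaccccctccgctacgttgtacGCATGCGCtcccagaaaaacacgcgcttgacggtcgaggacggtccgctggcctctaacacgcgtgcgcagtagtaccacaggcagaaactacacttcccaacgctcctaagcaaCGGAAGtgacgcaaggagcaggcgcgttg
The U2af1 window was 71.6% G and C and held 3 GC boxes (GGGCGG on either strand) and 2 CCAAT boxes (CCAAT on either strand), which overlap each other. The U2af1l4 window was 58.0% G and C and held 1 NRF1 core (GCATGCGC) and 1 ETS core (CGGAAG), also searched on both strands.

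Of the 48 members, 43 had a RefSeq promoter window, and their median G and C content was 60.8%, beside 59.6% for 8769 tested genes with a window. GC boxes were found in 65.1% of the members' windows, beside 57.5% of the tested genes' windows and 32.9% of all 27025 windows. CCAAT boxes were found in 53.5%, beside 36.1% of tested and 34.5% of all genes. ETS cores were found in 39.5%, beside 25.4% and 13.8%, and NRF1 cores in 6.98%, beside 4.46% and 2.32%. The glucocorticoid receptor half-site AGAACA was found in 9.3% of the members' windows, beside 11.4% and 16.2%. TATAAA was found in 11.6%, beside 6.96% and 13.0%, and the cAMP response element TGACGTCA in 2.33%, beside 2.62% and 1.62%. These are matches of letters and no measured binding.

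Among genes of the U2 snRNP, the 9 tested SF3a and SF3b members had a median difference of 0.01, with 5 higher and 4 lower, and 0 of them had groups that did not overlap. Sf3b1, whose product clamps the branch point and whose human form is mutated in myelodysplastic syndromes with ring sideroblasts, read 11.81, 11.87 and 11.84 in Chrm1-/- cells and 11.84, 11.84 and 11.80 in wild type cells. Its difference was 0.01 ± 0.09 (SE), and the 95% interval ran from -0.22 to 0.24. Sf3b4, an SF3b subunit that contacts the RNA near the branch point, was among the most variable members. It read 7.94, 8.40 and 7.43 in Chrm1-/- cells and 9.02, 8.40 and 7.65 in wild type cells, so the groups overlapped from 7.65 to 8.40. Its difference was -0.43 ± 0.40 (SE; 95% interval -1.41 to 0.54), and it was -0.79 without wild type replicate 3 and -0.10 without wild type replicate 1.

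Sf3b5, a small SF3b subunit, read 8.85, 8.88 and 9.28 in Chrm1-/- cells and 9.32, 9.17 and 9.26 in wild type cells. Chrm1-/- replicates 1 and 2 lay below the wild type arrays and replicate 3 lay among them, and the difference was -0.25 ± 0.15 (SE). Sf3a2, a subunit of SF3a, read 8.96, 9.95 and 9.41 in Chrm1-/- cells and 8.99, 9.73 and 9.11 in wild type cells, with a difference of 0.16 ± 0.31 (SE). Replicate 2 was the highest array of both groups for this gene. Sf1, the branch point binding protein that acts before U2 arrives, differed by 0.09 ± 0.11 (SE).

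Of 10 SR protein genes, 9 were tested, and 3 were higher and 6 lower in Chrm1-/- HSCs, with a median difference of -0.07 and a range from -0.16 to 0.12. Srsf3, a small SR protein that is also an adaptor for mRNA export, read 11.21, 11.15 and 11.16 in Chrm1-/- cells and 11.02, 11.02 and 11.13 in wild type cells. The 3 Chrm1-/- arrays lay above the 3 wild type arrays, by 0.12 ± 0.10 (SE) on average, with an unadjusted p of 0.279 in limma. Groups did not overlap for 2 of the 46 tested members, or 4.35%, beside 5.79% of all genes tested, of which 2.81% were higher and 2.97% lower in Chrm1-/-. Srsf2, which binds exonic enhancers and is mutated in human myelodysplasia, read 9.74, 9.93 and 9.87 in Chrm1-/- cells and 9.79, 9.87 and 9.87 in wild type cells. Its difference was 0.003 ± 0.11 (SE), and the 95% interval ran from -0.25 to 0.26. Srsf5 read 12.28 ± 0.08 in Chrm1-/- and 12.34 ± 0.07 in wild type cells (SD, n = 3 each), and Srsf12 averaged 5.93 and 5.92, below the filter.

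Srsf1, which encodes the first SR protein purified as a splicing factor, had 2 clusters whose differences had opposite signs. The cluster of higher signal, which the member rule takes, read 10.88, 10.53 and 10.76 in Chrm1-/- cells and 10.89, 10.90 and 10.87 in wild type cells, a difference of -0.16 ± 0.12 (SE). The further cluster read 7.47, 7.89 and 7.86 in Chrm1-/- cells and 7.17, 6.59 and 6.80 in wild type cells. Its wild type mean of 6.85 was close to the filter of 6.77, and wild type replicate 2 lay below the filter. The 3 Chrm1-/- arrays of the further cluster lay above the 3 wild type arrays, by 0.89 ± 0.20 (SE), with an unadjusted p of 0.00393 and an adjusted p of 0.996 in limma when the 11728 clusters of 1 symbol at or above the filter were fitted. In that fit 2.94% of clusters had an unadjusted p under 0.05, 0 passed the adjusted threshold and 5.77% had groups that did not overlap, 2.86% higher in Chrm1-/-. The sources used here do not say which part or strand of Srsf1 each cluster covers.

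Srsf6 also had 2 clusters. The one used had a difference of 0.02 and a wide wild type spread, with Chrm1-/- arrays at 11.22, 11.51 and 11.16 and wild type arrays at 11.75, 11.22 and 10.87. The further one read 10.37, 10.47 and 10.26 in Chrm1-/- cells and 10.18, 10.02 and 10.10 in wild type cells, with no overlap and a difference of 0.27 ± 0.11 (SE). Across the 12 members with more than 1 cluster there were 16 further clusters. Of these, 14 passed the filter. Among the 14, 1 had an unadjusted p under 0.05, or 7.14% beside 2.94%, and 2, those of Srsf1 and Srsf6, had groups that did not overlap, or 14.3% beside 5.77%. A dim Sf3b3 cluster below the filter also had no overlap, with means of 3.59 in Chrm1-/- and 3.91 in wild type cells.

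The hnRNP genes had the narrowest range of differences of the roles. Of 18 tested members, 6 were higher and 12 lower, the differences ran from -0.19 to 0.08, and the median was -0.04. Hnrnph1, whose product binds runs of G, was the one hnRNP gene whose groups did not overlap, with 11.26 on all 3 Chrm1-/- arrays and 11.27, 11.34 and 11.33 on the wild type arrays. The gap between the nearest arrays was a single unit of the last decimal in the table, and the difference was -0.05 ± 0.09 (SE). Hnrnpul1, an hnRNP U-like gene, had the most negative difference of the role, -0.19 ± 0.16 (SE), and Hnrnpa3 the most positive, 0.08 ± 0.22 (SE). This range covers the cluster used for each gene, and some further clusters lay outside it. The further Hnrnpu cluster read 10.33, 10.37 and 9.34 in Chrm1-/- cells and 10.60, 10.32 and 10.33 in wild type cells, a difference of -0.40 ± 0.30 (SE). That of Hnrnpul1 read 9.74, 8.43 and 9.56 in Chrm1-/- cells and 9.46, 9.85 and 9.46 in wild type cells, a difference of -0.35 ± 0.36 (SE). In each, 1 Chrm1-/- array lay far below the others, and the groups overlapped.

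Hnrnpl and Hnrnpll are paralogues whose products bind CA-rich RNA and steer the splicing of Ptprc, the CD45 gene, in lymphocytes. Hnrnpl read 10.95, 11.16 and 11.24 in Chrm1-/- cells and 11.22, 11.13 and 11.18 in wild type cells. Hnrnpll read 10.56, 10.58 and 9.96 in Chrm1-/- cells and 10.47, 10.40 and 10.38 in wild type cells. The differences were -0.06 ± 0.12 and -0.05 ± 0.19 (SE), and in each gene 1 Chrm1-/- array lay below all others, replicate 1 for Hnrnpl and replicate 3 for Hnrnpll. Hnrnpa2b1, which encodes the abundant A2 and B1 proteins, differed by -0.06 ± 0.13 (SE).

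Hnrnpf had 5 clusters, and their differences ran from -0.02 to 0.04. Hnrnpk had 3, which differed by 0.02, 0.04 and 0.14. Many hnRNP genes have processed copies elsewhere in the genome, so the source of the signal in a given cluster is uncertain for genes such as these. The pseudogene-named member Hnrnpa1l2-ps2 averaged 5.26 in Chrm1-/- and 5.13 in wild type cells and was below the filter.

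The further listed members were level as well, with 3 higher, 4 lower and a median difference of -0.01 over 7 genes. Prpf8, the scaffold at the catalytic core of the U5 snRNP, varied least of all members, with 10.72, 10.72 and 10.69 in Chrm1-/- cells and 10.72, 10.74 and 10.72 in wild type cells. Luc7l2, a partner of the U1 snRNP, read 10.71 ± 0.10 in Chrm1-/- and 10.65 ± 0.12 in wild type cells (SD, n = 3 each), and its further cluster differed by -0.28 ± 0.29 (SE). Ddx41, a DEAD-box helicase whose human form is mutated in inherited myeloid disease, read 7.72, 7.17 and 8.12 in Chrm1-/- cells and 7.99, 7.59 and 8.04 in wild type cells. Its groups overlapped, and the 95% interval of the difference of -0.20 ran from -0.85 to 0.44, so this gene was measured less closely than Prpf8, with an interval from -0.24 to 0.21.

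Tra2a and Tra2b encode paired SR-like activators of exon inclusion. Tra2a read 10.06, 10.31 and 10.15 in Chrm1-/- cells and 9.92, 10.26 and 9.87 in wild type cells. Tra2b read 11.08, 11.13 and 11.16 in Chrm1-/- cells and 11.25, 11.19 and 11.05 in wild type cells. The groups overlapped for both, at 0.16 ± 0.15 and -0.04 ± 0.11 (SE). Rbm39, a coactivator related to U2AF, averaged 11.75 in Chrm1-/- and 11.76 in wild type cells.

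**Figure D2:**
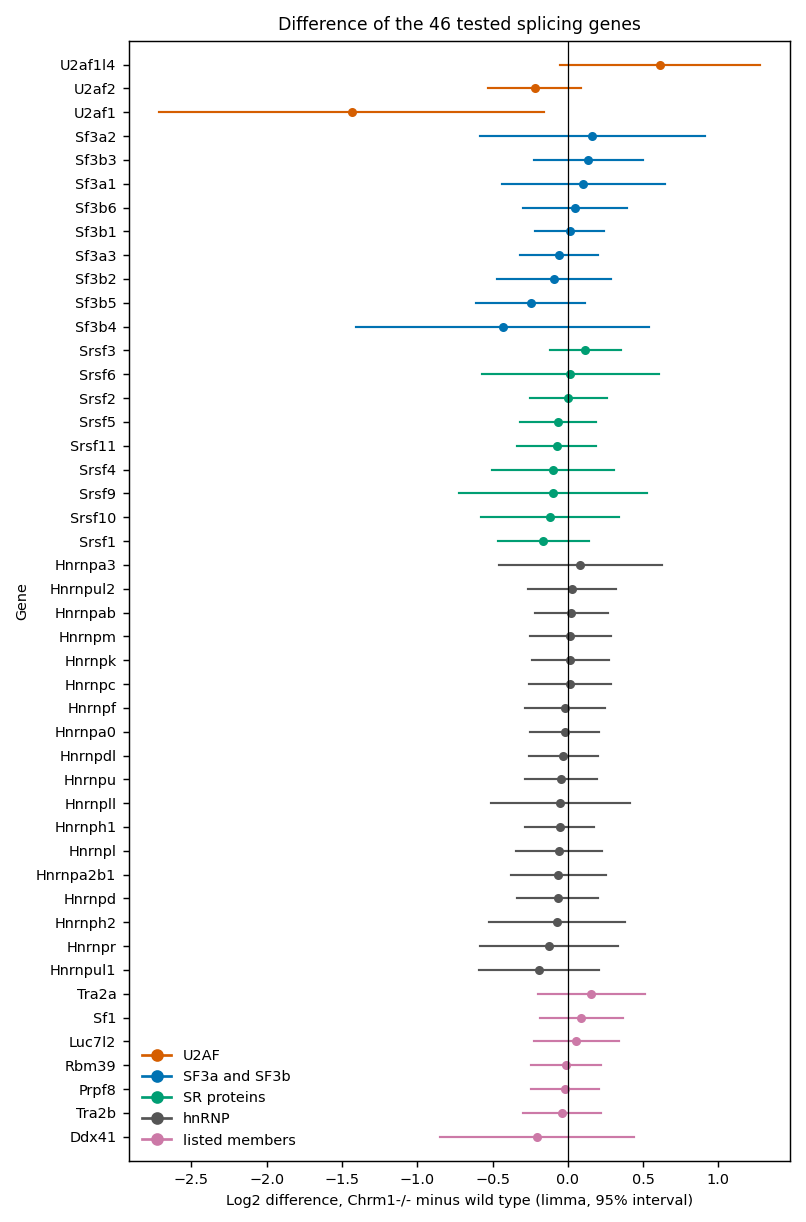
Log2 difference, Chrm1-/- minus wild type (horizontal axis), with limma's 95% interval for each of the 46 tested members, coloured by role and sorted within it. The interval of U2af1, from -2.72 to -0.16, is the one that does not include 0, before any adjustment for the number of genes.

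Most members varied little between replicate arrays. The median SD within groups was 0.12 over the 46 tested members, beside 0.22 over all genes tested. Spread depends on signal on these arrays. Among genes with a mean signal of 10 or more, the median SD was 0.10 for the 32 members and 0.15 for all 1574 genes. Among dimmer tested genes it was 0.28 for 14 members and 0.23 for all 9520. The largest SD over all 6 arrays belonged to U2af1, Sf3b4 and U2af1l4.

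**Figure D3:**
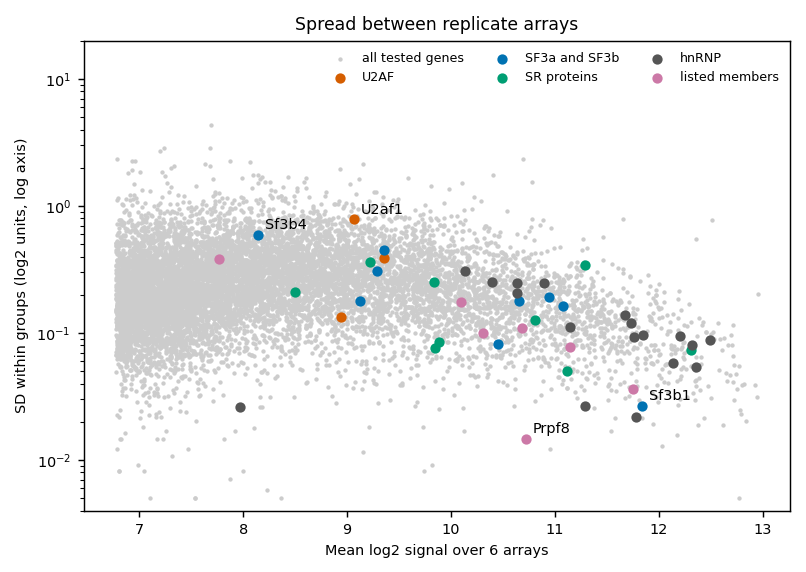
SD within groups (vertical log axis, log2 units) against the mean log2 signal over 6 arrays for all tested genes in grey and the members in colour; SDs under 0.005 are drawn there. U2af1 and Sf3b4 sit high in the cloud, and Prpf8 and Sf3b1 sit near its lower edge.

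Wild type replicates 1 and 3 stood apart from each other across the members. Wild type replicate 1 held or shared the highest value for 15 of the 46 tested members, beside 17.0% of all genes tested, and the lowest for 3, beside 18.1%. Wild type replicate 3 held or shared the lowest value for 15, beside 21.4% of all genes, and the highest for 5, beside 20.5%. These shares are not matched for signal: 32 of the 46 members had a mean of 10 or more, beside 1574 of 11094 genes. The upper quartile of all clusters was 7.87 on wild type replicate 1, 7.79 on wild type replicate 3 and 7.83 to 7.88 on the other arrays. The part of signal level and of these quartiles in the members' values was not tested. Less each gene's mean over the arrays, the members' median was -0.02, -0.02 and 0.01 on the Chrm1-/- arrays and 0.08, 0.02 and -0.06 on the wild type arrays. Of the roles, the SF3a and SF3b genes had the widest gap, with a median of 0.15 on wild type replicate 1 and -0.21 on wild type replicate 3. Without wild type replicate 3, 10 members had groups that did not overlap, or 21.7%, beside 17.8% of all genes; they included U2af1, U2af2, Srsf1, Sf3b2 and Tra2b. The granulocyte precursor, macrophage and monocyte, and B cell marker lists had their highest means on wild type replicate 3. The megakaryocyte and platelet list and the T cell list did not, and the erythroid list had its lowest mean there. The erythroid mean was 9.362 to 9.595 on the Chrm1-/- arrays and 9.438, 9.282 and 9.185 on the wild type arrays. The mean of the macrophage and monocyte list was 7.28 to 7.41 on the Chrm1-/- arrays and 7.37, 7.43 and 7.88 on the wild type arrays, and that of the B cell list was 7.10 to 7.53 on the Chrm1-/- arrays and 7.10, 6.98 and 7.72 on the wild type arrays. Cd79a, a B cell marker below the filter, read 7.25, 6.18 and 6.40 in Chrm1-/- cells and 6.33, 6.05 and 7.77 in wild type cells. The part of these markers in the members' values on this array was not tested.

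**Figure D4:**
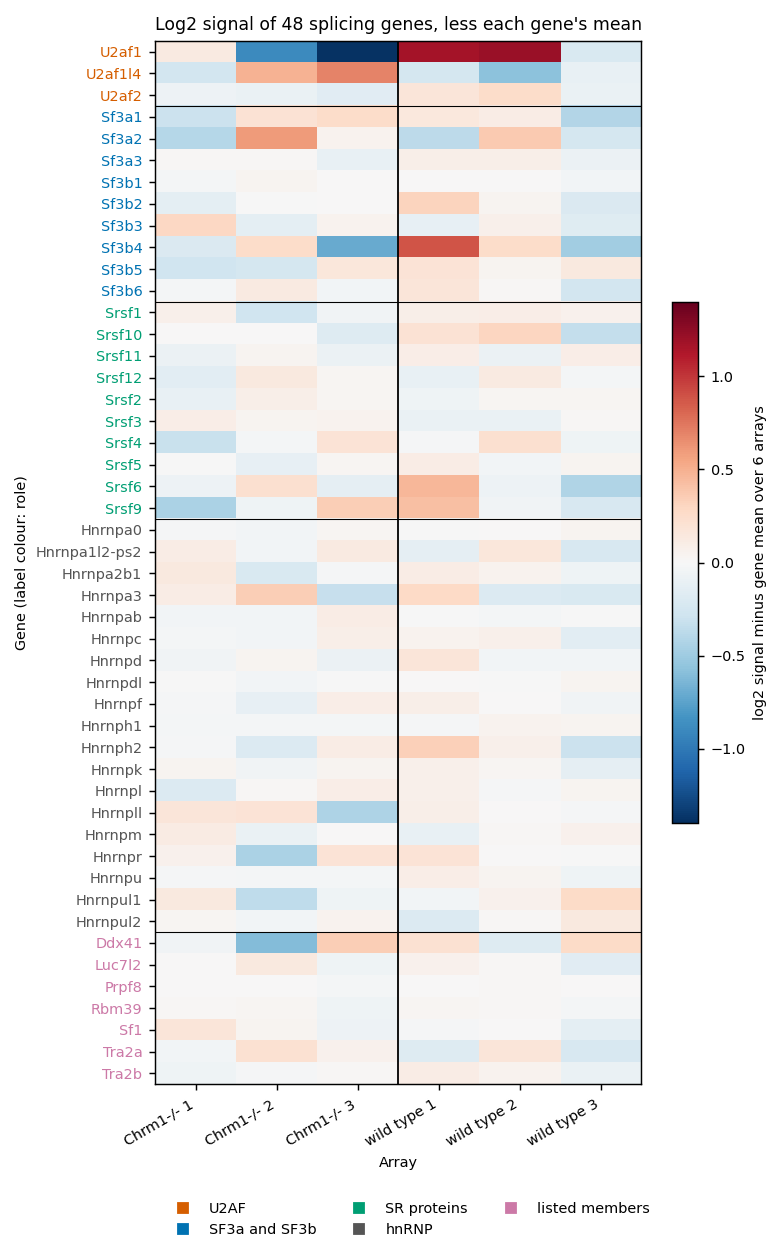
Log2 signal of the 48 members less each gene's mean over the 6 arrays (colour scale), with genes in rows by role and arrays in columns, Chrm1-/- at the left of the black line and wild type at the right. The U2af1 row shows the strongest contrast, the SF3a and SF3b rows are mostly red on wild type replicate 1 and blue on wild type replicate 3, and most hnRNP rows are pale throughout.

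Other spliceosome genes, taken from lists of 119 genes of which 103 were tested, were examined as well. In limma 0 passed the adjusted threshold, 46 were higher and 56 lower in Chrm1-/- HSCs, and the median difference was -0.03. One gene had an unadjusted p under 0.05, which is 0.971% beside 2.99% of all genes tested. It was Dhx8, a helicase that releases spliced mRNA, with 8.59, 8.48 and 7.91 in Chrm1-/- cells and 8.68, 8.79 and 9.12 in wild type cells. Its groups did not overlap, and the difference was -0.54 ± 0.22 (SE), with an unadjusted p of 0.0495 and an adjusted p of 0.996.

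By list, U1, U2, U5 and Sm proteins had 6 genes higher and 10 lower of 16 tested, and U4/U6, tri-snRNP and LSm proteins had 4 higher and 10 lower of 14. The Prp19 complex with the helicases and second step factors had 9 higher and 13 lower of 22. Of 7 tested SR protein kinases, which phosphorylate SR proteins, 5 were higher and 2 lower, with a median of 0.17, and 0 had an unadjusted p under 0.05. Exon junction complex genes had 4 higher and 3 lower of 7, and minor spliceosome genes 3 and 3 of 6. The hnRNP-like and other regulators had 15 higher and 15 lower of 31, and groups did not overlap for 5 of them, all 5 lower in Chrm1-/-, which is 16.1% beside 5.79% of all genes tested. Nor did groups overlap for 2 of 6 minor spliceosome genes (33.3%) and 3 of 16 U1, U2, U5 and Sm genes (18.8%). The share was 7.14% for U4/U6, tri-snRNP and LSm genes, 9.09% for the Prp19 list and 0.0% for SR protein kinases and exon junction complex genes. Groups did not overlap for 13 of the 103 genes, 4 of them higher and 9 lower in Chrm1-/-, which is 12.6% beside 5.79% of all genes tested.

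**Figure D5:**
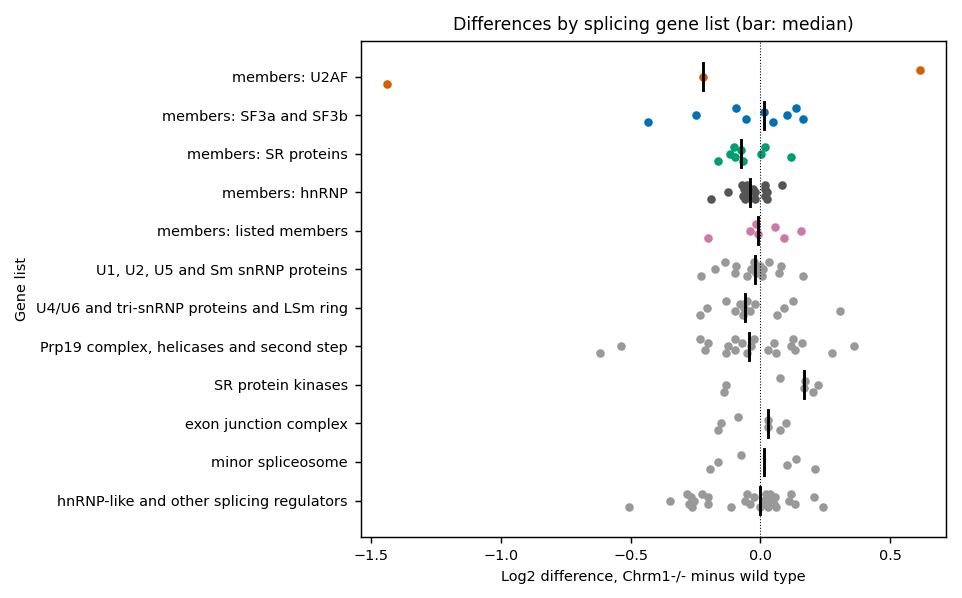
Log2 difference, Chrm1-/- minus wild type (horizontal axis), of each tested gene, with the members by role in colour and the other spliceosome lists in grey; black bars mark each list's median. U2af1 at -1.44 and U2af1l4 at 0.61 lie outside the range of all other genes shown, -0.62 to 0.36.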

How the data were processed

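HSCs from Chrm1-/- and wild type mice were profiled on 6 Affymetrix mouse gene ST arrays, 3 per genotype, grouped by the labels. Per the series design text, sorted cells were lysed directly, RNA was amplified and arrays were processed in the Affymetrix analysis software. How it summarized and normalized them, and its version, is not given in the sources used here. Values were used as deposited, 1 per transcript cluster and array, and read as log2 signals because they span 3.02 to 13.67.

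Of 41345 clusters, 23521 had 1 gene symbol, 1814 several and 16010 none in the platform annotation. The single-symbol cluster with the highest mean was used per gene. Genes with a mean of at least 6.77, the median of all genes, were tested with limma 3.58.1 in R 4.3.3 (lmFit and eBayes, two-sided, Benjamini-Hochberg over 11094 genes, threshold 0.05). Intervals are 95% intervals of that fit, and the array number limits precision. Promoter windows came from RefSeq, GRCm38.p6. The members and lists were chosen with earlier results of these data known.

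Named genes were the recurrently mutated splicing genes, members with an unadjusted p under 0.05 or non-overlapping groups, the 3 largest differences each way, the members of highest and lowest mean per role, the 3 of largest SD, and paralogue pairs; non-members were named at an unadjusted p under 0.05. Further names were chosen after their values were seen. Alternatives covered the filter, normalization, clusters, moderation, array weights, the replicate block and leaving out each array. The fit was tested on simulated data with 50 genes changed at each of several fold sizes. There the adjusted threshold was passed by 12% of the genes changed 1.5-fold and 40% of those changed 2-fold. It was passed by 72% of those changed 4-fold, so many changes of the smaller sizes would be missed.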

Additional observations from a re-analysis of the deposited data

How the results depend on the processing

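Over the 15 alternatives run, the median difference of the members stayed below 0, from -0.06 to -0.02, and no member tested in an alternative had an adjusted p below 0.955 there. The difference of U2af1 kept its sign throughout. It ran from -1.90 to -1.10 on leaving out 1 array and from -1.72 to -1.44 otherwise. That of U2af1l4 also kept its sign, at 0.42 to 0.90 on leaving out 1 array. Of the 21 members named by rule, 11 took the other sign or 0 under at least 1 alternative, and none of these was called: Ddx41 (-0.43 to 0.05 on leaving out 1 array), Hnrnpll (-0.16 to 0.15), Sf3a2 (-0.09 to 0.40), Hnrnpa2b1, Hnrnpf, Hnrnpl, Luc7l2, Rbm39, Sf3b1, Srsf2 and Tra2b. Of the 46 tested members, 2 had an unadjusted p under 0.05 with the mean of all clusters (U2af1 and Srsf1), beside 2.96% of all genes. With array weights 2 did (U2af1 and U2af1l4), beside 4.0% of all genes. On leaving out 1 array 0 to 2 did, beside 3.02% to 4.71% of all genes. The number was 0 without Chrm1-/- replicate 2, wild type replicate 1 or wild type replicate 2. Without moderation the 1 member with an unadjusted p under 0.05 was Srsf3, beside 2.28% of all genes, and U2af1 had 0.0898. Members whose groups did not overlap numbered 1 after quantile normalization (U2af2), or 2.17% beside 7.71% of all genes. The groups of Srsf3 and Hnrnph1 overlapped in that setting. On leaving out 1 array such members numbered 2 to 10, or 4.35% to 21.7%, beside 13.1% to 17.8% of all genes. The number was highest without wild type replicate 3, and with fewer arrays a group separates more often. Over all genes, 1 passed the adjusted threshold without moderation (Apmap) and 0 or 1 on leaving out 1 array (Snord49a without Chrm1-/- replicate 3, Gdpd3 without wild type replicate 1); none is a member. The genes with an unadjusted p under 0.05 numbered 567 with no filter and 169 at the 75th percentile filter, as more or fewer genes were tested, and 522 without wild type replicate 3. The labels give same-numbered arrays only a shared number. Correlations of their deviations were -0.03, 0.01 and -0.01, which cannot show whether these arrays were handled together. With the replicate number as a block, 396 genes and 1 member, U2af1, had an unadjusted p under 0.05, and 0 passed. In that limma fit U2af1 differed by -1.44 ± 0.26 (SE), with an unadjusted p of 0.00382 and an adjusted p of 0.996. The fit of every cluster as a feature of its own was chosen after seeing the data. The table holds no detection calls, so depth of signal over background is unknown.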
